A study of Mus musculus with 6 samples.

Results

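The genes described were the Gpr genes of mouse splenic CD4+ T cells, taken as every gene in the deposited tables whose symbol was Gpr followed by a number. They were 78 of the 45777 genes listed. By RefSeq biotype 75 were protein coding and 3 were pseudogenes. CD4+Lrig1+ and CD4+Lrig1- T cells had been sorted by flow cytometry from the spleens of female C57BL/6 mice aged 7 weeks, and their RNA was sequenced to ask which transcripts differ between them. Lrig1 is a transmembrane protein with leucine-rich repeats that dampens growth factor receptor signalling, and the sort divides the cells by this protein on their surface. The labels list 3 samples per group. Of these, 2 libraries per group were used, 1 CD4+Lrig1+ and 1 CD4+Lrig1- library in each of 2 deposited tables, called set 1 and set 2. Nothing in the labels says that the libraries came from separate animals, so p-values measure only the spread between these libraries.

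Receptors named Gpr were numbered as their sequences were found, most of them before any ligand was known. A G protein-coupled receptor crosses the membrane repeatedly and, once bound, makes a heterotrimeric G protein on the inner face exchange its nucleotide, after which receptor kinases and arrestins switch the receptor off. In T cells such receptors read lipids, protons and chemoattractants and so place the cell within a tissue. The label orphan holds only in part: Gpr183 has an oxysterol ligand, Gpr34 and Gpr174 bind lysophosphatidylserine, Gpr15 binds a peptide made by epithelia, and Gpr65 and Gpr4 sense protons. Several members, such as Gpr89, Gpr107 and Gpr108, are proteins of intracellular membranes.

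Gpr83, Gpr15, Gpr55 and Gpr34 were higher in the CD4+Lrig1+ than in the CD4+Lrig1- library of both sets, by 2.36-fold to 7.68-fold, and Gpr132, Gpr146, Gpr18 and Gpr171 were lower in both. Across sets the groups overlapped for Gpr18 and Gpr171. Of the members tested, 54.3% were higher and 40% lower in both sets, beside 36% and 41.9% of all genes tested. Of the 78 genes, 42 had at least 10 estimated counts in any of the 4 libraries and 28 had them in every library. Another 26 were at 0 in all 4 libraries. The single libraries held 33 to 35 members with at least 10 counts and 32 to 35 at 0. The members took 0.0853% to 0.108% of all counts. Levels given as CPM, counts relative to the library total scaled by TMM, compare 1 gene between libraries. Levels of different genes are compared per unit length as TPM, within a library only, since the sets differed in their totals.

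The libraries held 44865070 to 59977951 estimated counts. Lrig1 was at 221 CPM in the CD4+Lrig1+ and 75.3 CPM in the CD4+Lrig1- library of set 1, and at 129 and 36.7 CPM in set 2, the order that the sort gives. Foxp3, the lineage factor of Treg cells, was at 589 and 615 CPM in CD4+Lrig1+ and at 48.9 and 30.7 CPM in CD4+Lrig1- libraries. None of the 6 T cell markers was at 0 in any library, and their summed level ran from 2645 to 4349 CPM. None of the markers of other cell types was at 0 either. The 9 B cell markers summed to 96.7 and 76.6 CPM in CD4+Lrig1+ and CD4+Lrig1- of set 1 and to 387 and 764 CPM in set 2. The 8 myeloid markers summed to 52.9 and 61.2 CPM in set 1 and 211 and 249 CPM in set 2, the 4 NK markers to 7.54 and 25.3 CPM and then 28.1 and 85.5 CPM, and the 2 CD8 markers to 14.1 and 19.5 CPM and then 51.6 and 97.2 CPM.

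With the spread taken over all 4 libraries, no gene passed in edgeR. edgeR's quasi-likelihood test, with p-values adjusted by Benjamini-Hochberg and a threshold of 0.05, called 0 of the 35 members tested and 0% of the 16123 genes tested in either direction. At an unadjusted p under 0.05 it gave 8 members higher in CD4+Lrig1+, against 4.18% of all genes, and 1 member lower, against 1.41%. The former included Gpr15, Gpr34, Gpr45, Gpr52, Gpr55, Gpr83 and Gpr153, and the latter was Gpr146. Gpr45 and Gpr153 reached the test only through their CD4+Lrig1+ libraries, so their place among the 8 is a description. The Wald test of DESeq2 called 3 members higher, Gpr83 and Gpr15 among them, against 1.63% of all genes, and 0 lower, against 0.31%. Leaving out each library in turn also gave 0 members in edgeR, with 0.031% and 0.273% of all genes called higher without the CD4+Lrig1+ and the CD4+Lrig1- library of set 1 and 0% otherwise. The exact permutation test of 2 against 2 libraries cannot go below p = 0.333.

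The same edgeR test with the table that holds a library as a term compares the groups within sets and leaves 1 residual degree of freedom per gene. It called 13 of the 35 members higher in CD4+Lrig1+ (background 14.6% of all genes tested) and 8 lower (background 12.8%), while 14 did not pass. Members called made up 37.1% and 22.9% of those tested. The groups did not overlap in CPM for 13 members higher in CD4+Lrig1+ (background 14.3%) and for 8 lower (background 11.8%). The log2 ratio was above 0 in both sets for 19 members (background 36%) and below 0 in both for 14 (background 41.9%). With the table term, DESeq2's Wald test gave 10 members higher and 7 lower (background 11.5% and 12.2%) and limma on log2(FPKM + 1) called 7 and 6 (background 11.9% and 6.3%). The edgeR fit with the table term called 12 and 8 with DESeq2's size factors (background 13.7% and 14.8%), 13 and 8 with total counts only (background 19% and 12.6%) and 13 and 8 at an adjusted p under 0.1 (background 18.3% and 17.5%). The median log2 fold change over the 35 members was 0.11 with the table term and 0.12 without it, beside -0.04 over all genes tested in either fit. These counts describe the members that passed the filter on low counts. Gpr45 and Gpr153 passed it through their CD4+Lrig1+ libraries alone, so their calls, included in the 13, are a description. The same holds for their place among the 13 without overlap and the 19 above 0 in both sets. It holds also for the 12 and 13 of the other edgeR fits with the table term. Gpr153 alone of these 2 genes is among the 10 of DESeq2 and the 7 of limma. Adjusted p-values given for single genes from here on come from this edgeR fit with the table term, unless another fit is named. None of these genes had an edgeR adjusted p under 0.05 without that term. Of the members called, Gpr45, Gpr107, Gpr137 and Gpr141 did not pass in DESeq2's Wald test with the table term, and Gpr45, Gpr52, Gpr107, Gpr137, Gpr155, Gpr174, Gpr180 and Gpr183 did not pass in limma with it.

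**Figure D1:**
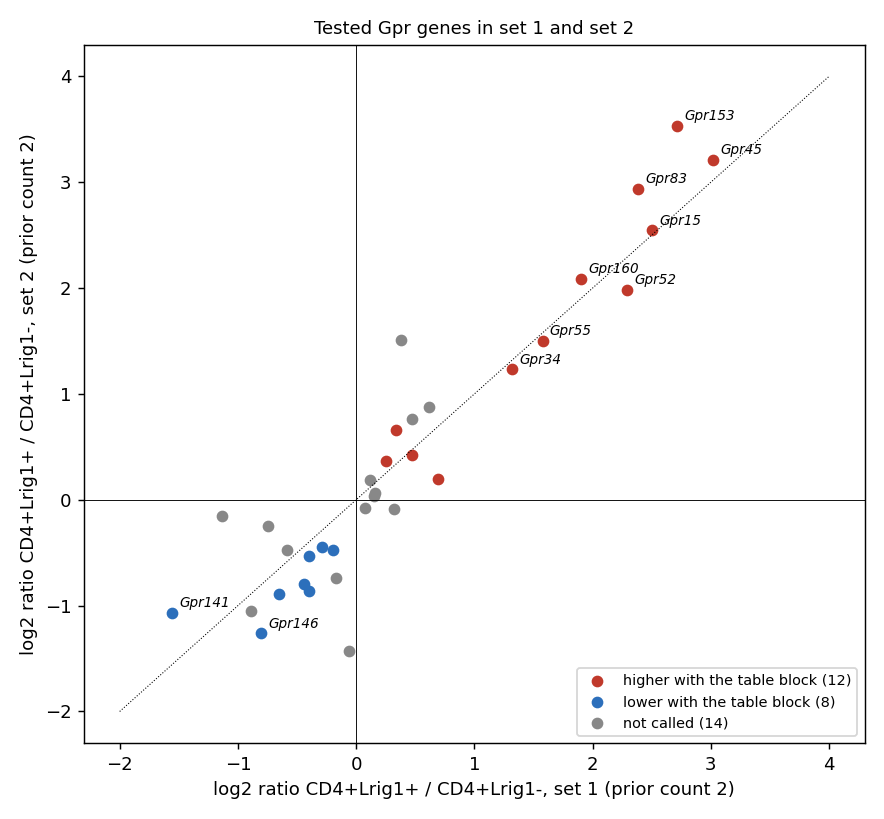
Each point is 1 of 34 tested Gpr genes, placed by its log2 ratio between the CD4+Lrig1+ and the CD4+Lrig1- library in set 1 (horizontal axis) and set 2 (vertical axis, prior count of 2 on both) and the dotted line at equal ratios. Red and blue points passed as higher (12) or lower (8) with the table term, and grey points (14) did not pass; Gpr83 lies at 2.39 and 2.94, and Gpr146 at -0.81 and -1.26.

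Among the receptors grouped here as tied to lymphocyte positioning or to Treg cells, all 11 had at least 10 counts in some library. Of these 6 passed as higher (background 14.6%) and 4 as lower (background 12.8%). The grouping is loose: for some members, Gpr146 and Gpr160 among them, no tie to lymphocyte positioning or Treg cells is given here. This group, like those below, was drawn up with earlier results of these data known. Its counts describe the genes listed and are no result about a class of receptors. Gpr83, a receptor for neuropeptides, was at 130 CPM in the CD4+Lrig1+ and 24.9 CPM in the CD4+Lrig1- library of set 1, and at 150 and 19.5 CPM in set 2. Both CD4+Lrig1+ libraries lay far above both CD4+Lrig1- libraries, 5.23-fold in set 1 and 7.68-fold in set 2. The group means were 140 ± 14.0 CPM (SD, n = 2) and 22.2 ± 3.77 CPM (SD, n = 2), and the log2 fold change was 2.66 ± 0.13 (SE), with an edgeR adjusted p of 2.34e-05. Without the table term it was 2.66 ± 0.32, with an edgeR adjusted p of 0.501, and the DESeq2 Wald test without that term gave an adjusted p of 6.48e-06. The exact permutation p for the means was 0.333, the smallest possible. In TPM it was the second most abundant member in both CD4+Lrig1+ libraries and ranked 13 in both CD4+Lrig1- libraries. The gene spans chr9:14859880-14870789 on the plus strand of GRCm38. The most abundant of its 4 transcript models took 51.8% to 58.9% of its counts in every library. In bulk RNA fewer cells with a transcript and less of it per cell cannot be told apart, here and for every gene that follows.

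Gpr15, the receptor that brings T cells to the large intestine, was at 8.48 CPM in the CD4+Lrig1+ and 1.46 CPM in the CD4+Lrig1- library of set 1, and at 14.4 and 2.42 CPM in set 2. The ratio was alike in both sets, 5.80-fold and 5.92-fold, although the level in set 2 was higher in both groups. Its log2 fold change was 2.55 ± 0.16 (adjusted p = 6.86e-05, edgeR). The counts behind these values were 441, 70, 825 and 131. The gene (chr16:58716643-58718872, minus strand) overlaps Cpox on the other strand, an enzyme of haem synthesis whose counts were 1432, 884, 1573 and 986. The share of Cpox reads in the Gpr15 counts was not tested, because the counting strand is not stated.

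The lysophospholipid receptors Gpr55, Gpr34 and Gpr174 all passed as higher in CD4+Lrig1+. Gpr55, which answers lysophosphatidylinositol, was at 16.7 and 5.57 CPM in set 1 and at 16.4 and 5.77 CPM in set 2. Its values nearly coincided between sets, with a log2 fold change of 1.55 ± 0.12 (adjusted p = 1.65e-04, edgeR). Gpr34, a lysophosphatidylserine receptor on the X chromosome inside Cask, was at 15.5 and 6.18 CPM in set 1 and at 22.6 and 9.59 CPM in set 2. The groups did not overlap, and the log2 fold change was 1.28 ± 0.11 (adjusted p = 2.53e-04, edgeR). Gpr174 reads the same lipid and restrains T cells. It was at 134 and 82.5 CPM in set 1 but at 114 and 99.7 CPM in set 2, a fold of 1.62 in set 1 and 1.15 in set 2 (adjusted p = 0.0277, edgeR). Gpr160 passed at a low level, 0.88 and 0.21 CPM in set 1 and 1.93 and 0.43 CPM in set 2, that is on 46, 10, 111 and 23 counts (adjusted p = 0.0113, edgeR).

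The members of the same group that passed as lower were Gpr18, Gpr183, Gpr171 and Gpr146. Gpr18, a lipid receptor of lymphocytes, was at 36.5 CPM in the CD4+Lrig1+ and 49.5 CPM in the CD4+Lrig1- library of set 1, and at 60.7 and 105 CPM in set 2. Within each set CD4+Lrig1- was higher, 1.36-fold and 1.74-fold, yet across sets the groups overlapped, because both libraries of set 2 lay above both of set 1. The log2 fold change was -0.62 ± 0.10 (adjusted p = 0.00382, edgeR), and the exact permutation p that ignores the sets was 0.667. In TPM Gpr18 was the most abundant member in both libraries of set 2.

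Gpr183, also called EBI2, draws lymphocytes along gradients of oxysterols. It was at 68.2 and 78.1 CPM in set 1 and at 85.7 and 119 CPM in set 2. The within-set differences were small, 1.14-fold and 1.39-fold, the groups overlapped across sets, and the log2 fold change was -0.34 ± 0.09 (adjusted p = 0.0259, edgeR). Its exact permutation p was 0.667, and limma on log2(FPKM + 1) with the table term gave an adjusted p of 0.0699. Gpr18 and Gpr183 are neighbours on chromosome 14 and both lie within Ubac2, a gene of the opposite strand whose counts were 4839, 4690, 7508 and 7236 in the order CD4+Lrig1+ and CD4+Lrig1- of set 1, then of set 2.

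Gpr171, a receptor reported for a neuropeptide and a brake on T cell activation, was at 26.2 and 34.6 CPM in set 1 and at 37.9 and 69.0 CPM in set 2. Here too the sets were further apart than the groups in set 1, and the log2 fold change was -0.64 ± 0.12 (adjusted p = 0.00756, edgeR). Gpr146, known for its part in liver cholesterol metabolism, was at 49.9 and 87.3 CPM in set 1 and at 32.2 and 77.1 CPM in set 2. Both CD4+Lrig1- libraries were above both CD4+Lrig1+ libraries, by 1.75-fold and 2.40-fold, and the log2 fold change was -1.03 ± 0.11 (adjusted p = 6.74e-04, edgeR). The gene on its opposite strand, 3110082I17Rik, ran the other way, at 233 and 81 counts in set 1 and 413 and 187 in set 2. Gpr25, found on T cells of mucosal tissues, had 7, 12, 14 and 16 counts and did not pass (adjusted p = 0.633, edgeR).

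Some marker sums of other cell types were also higher in CD4+Lrig1- libraries, though not all of them in both sets. B cells, NK cells and CD8 T cells also express Gpr18, Gpr183 or Gpr171. The NK and CD8 marker sums were higher in the CD4+Lrig1- library of both sets, whereas the B cell marker sum was higher in CD4+Lrig1- of set 2 only. In set 1, where that sum was 76.6 CPM in CD4+Lrig1- and 96.7 CPM in CD4+Lrig1+, the log2 ratios of Gpr18, Gpr183 and Gpr171 were -0.44, -0.19 and -0.40. In set 2 they were -0.80, -0.47 and -0.86. The part of these cells in the differences was not tested.

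**Figure D2:**
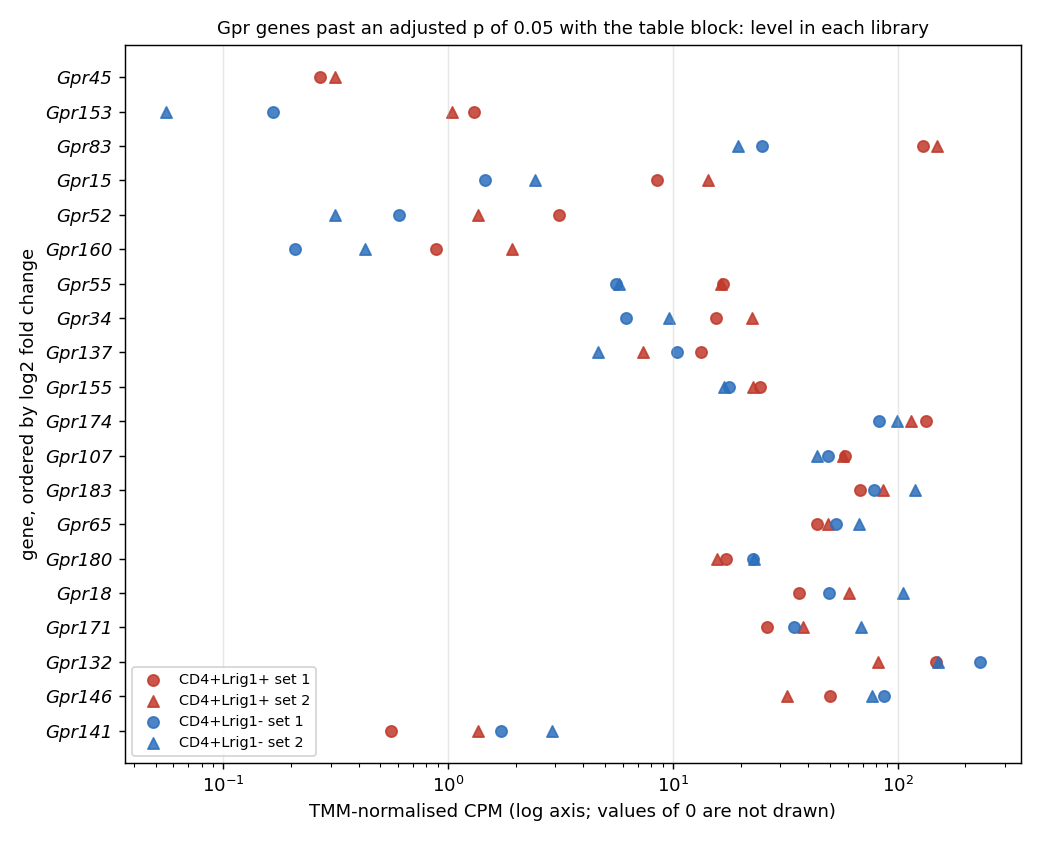
TMM-normalised CPM on a log axis in each of the 4 libraries (circles set 1, triangles set 2, red CD4+Lrig1+, blue CD4+Lrig1-) for 20 members that passed with the table term, ordered by log2 fold change. The red points of Gpr83 lie at 130 and 150 CPM and the blue points at 24.9 and 19.5 CPM, while red and blue points of Gpr18 and Gpr183 interleave. The CD4+Lrig1- libraries of Gpr45, at 0, are not drawn.

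The promoters of Gpr83 and Gpr15, which passed as higher, and of the neighbours Gpr18 and Gpr183, which passed as lower, are shown as examples from each direction. They were chosen after their values were seen, and the lower genes Gpr146 and Gpr132 differed more than Gpr18 and Gpr183, whose groups overlapped across sets. Each is the 250 bases upstream of a RefSeq start in GRCm38.p6, read in the direction of the gene, with capitals marking matches on either strand to a forkhead word (TGTTTAC) or a runt word (AACCACA). The windows are chr9:14859960-14860209 (plus strand) for Gpr83, chr16:58718873-58719122 (minus) for Gpr15, chr14:121915889-121916138 (minus) for Gpr18 and chr14:121965194-121965443 (minus) for Gpr183. The Gpr83 window lies within the gene span given above, because other transcript models of this gene begin further upstream, at 14859880.
Gpr83: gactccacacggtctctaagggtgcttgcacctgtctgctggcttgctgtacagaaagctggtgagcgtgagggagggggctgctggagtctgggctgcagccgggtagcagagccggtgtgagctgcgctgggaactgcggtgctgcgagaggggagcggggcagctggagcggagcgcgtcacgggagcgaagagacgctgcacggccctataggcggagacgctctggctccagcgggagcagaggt
Gpr15: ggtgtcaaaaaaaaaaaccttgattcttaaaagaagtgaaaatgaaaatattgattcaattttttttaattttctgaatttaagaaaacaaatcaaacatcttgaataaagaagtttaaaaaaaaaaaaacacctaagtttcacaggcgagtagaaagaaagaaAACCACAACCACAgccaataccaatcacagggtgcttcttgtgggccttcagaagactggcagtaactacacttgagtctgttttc
Gpr18: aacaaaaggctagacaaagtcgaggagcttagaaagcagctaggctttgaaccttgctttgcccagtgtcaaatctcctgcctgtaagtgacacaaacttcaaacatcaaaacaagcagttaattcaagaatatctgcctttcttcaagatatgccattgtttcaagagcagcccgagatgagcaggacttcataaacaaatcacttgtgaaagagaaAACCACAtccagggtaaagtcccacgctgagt
Gpr183: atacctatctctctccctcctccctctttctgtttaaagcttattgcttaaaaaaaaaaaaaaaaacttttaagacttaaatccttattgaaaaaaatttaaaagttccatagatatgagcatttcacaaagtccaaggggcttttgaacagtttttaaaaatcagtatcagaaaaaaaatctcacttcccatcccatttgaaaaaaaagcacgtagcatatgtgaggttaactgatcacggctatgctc
Foxp3 is a forkhead factor and Runx1 and Runx3 are runt factors of T cells, which is why these words were searched. Gpr15 held the runt word 2 times, beginning 86 and 80 bases before the start and sharing a base, and Gpr18 held it 1 time, 32 bases before the start. Gpr83 and Gpr183 held neither word. The base composition of the windows differed, with a GC content of 66.8% for Gpr83, 42.4% for Gpr18, 32% for Gpr183 and 31.6% for Gpr15. Among all 32851 RefSeq promoter windows the runt word was in 4.40% and the forkhead word in 3.17%. Of the 69 windows of 53 members, 4 held the runt word (Gpr15, Gpr18, Gpr39 and Gpr132) and 2 the forkhead word (Gpr146 and Gpr180). A match to such a short word is only a string of letters, and its absence from a window says nothing of the factors.

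Gpr65, a receptor that couples an acidic surrounding to cyclic AMP, was at 43.6 and 53.4 CPM in set 1 and 49.1 and 67.1 CPM in set 2. The groups did not overlap, with CD4+Lrig1- the higher, and the log2 fold change was -0.37 ± 0.08 (adjusted p = 0.0148, edgeR).

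Gpr132 resembles the proton sensors in sequence and answers oxidised fatty acids. It was at 148 and 232 CPM in set 1 and at 81.5 and 151 CPM in set 2. CD4+Lrig1- was higher in both sets, 1.57-fold and 1.85-fold, but the CD4+Lrig1+ library of set 1 nearly reached the CD4+Lrig1- library of set 2. The log2 fold change was -0.77 ± 0.09 (adjusted p = 7.09e-04, edgeR). In TPM it was the most abundant member of all in both libraries of set 1, at 151 and 243 TPM. Gpr4, the proton sensor of vessel walls, had 0, 32, 2 and 11 counts, both CD4+Lrig1- libraries above both CD4+Lrig1+ libraries, and did not pass the filter on low counts.

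**Figure D3:**
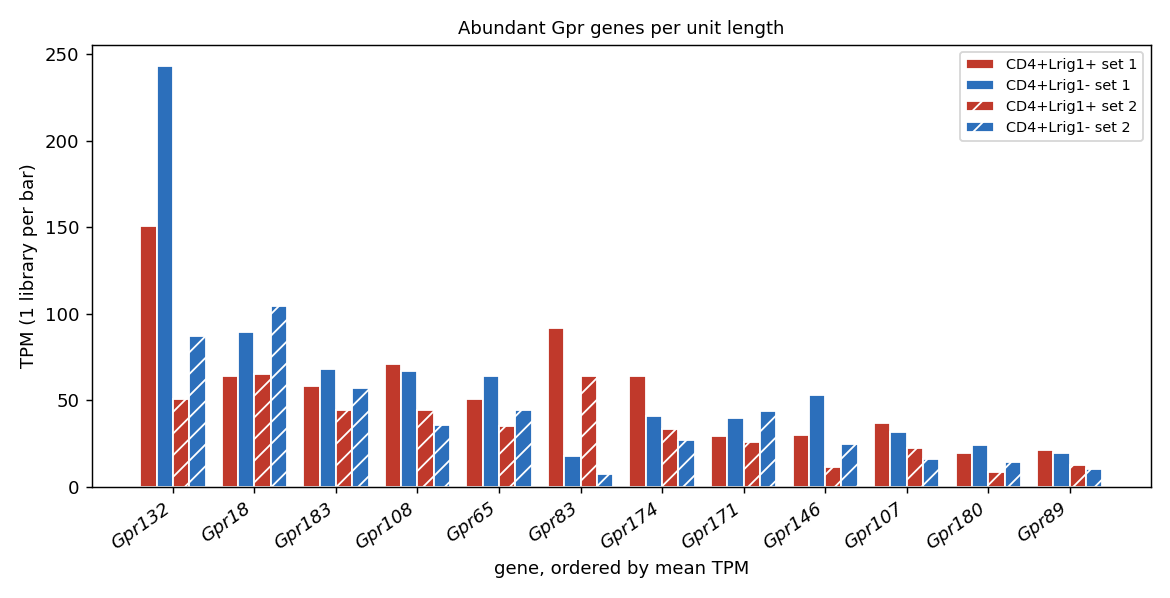
TPM of 12 Gpr genes of high mean TPM, 1 bar per library (red CD4+Lrig1+, blue CD4+Lrig1-, hatched set 2). Gpr132 is the tallest in set 1, at 151 and 243 TPM, and Gpr83 stands at 91.7 and 64.0 TPM in CD4+Lrig1+ against 17.8 and 7.64 TPM in CD4+Lrig1-.

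Of the 9 members of intracellular membranes 7 had at least 10 counts in every library, Gpr137c had 4 and 6 counts in set 2, and Gpr143 was at 0 throughout. Of the 8 tested, 3 passed as higher (background 14.6%) and 1 as lower (background 12.8%). Gpr155, a cholesterol sensor of the lysosome, was at 24.5 and 17.7 CPM in set 1 and at 22.7 and 16.8 CPM in set 2 (log2 fold change 0.45 ± 0.09, adjusted p = 0.0124, edgeR). Gpr107, a protein of the Golgi and of vesicle transport, was at 58.6 and 49.1 CPM and then 56.9 and 44.0 CPM (log2 fold change 0.31 ± 0.08, adjusted p = 0.0257, edgeR), and passed neither in DESeq2's Wald test (adjusted p = 0.0713) nor in limma (0.0708) with the table term. In both genes the 2 libraries of a group were closer to each other than to the other group. Gpr137, a lysosomal protein, was at 13.3 and 10.5 CPM and then 7.33 and 4.63 CPM, so the sets differed more than the groups, and its adjusted p was 0.0396 in edgeR, 0.211 in DESeq2's Wald test and 0.0921 in limma, all with the table term. Gpr180 passed as lower, at 17.3 and 22.8 CPM and then 15.8 and 22.8 CPM (adjusted p = 0.0124, edgeR). Gpr108, which is related to Gpr107, was at 61.6 and 56.7 CPM and then 61.9 and 54.3 CPM and did not pass (log2 fold change 0.15 ± 0.08, adjusted p = 0.177, edgeR). Gpr89, a Golgi pH regulator, was at 36.4 and 32.7 CPM and then 23.3 and 22.7 CPM and did not pass either (adjusted p = 0.496, edgeR).

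Most receptors known from neurons and endocrine cells were at or near 0. Of 25, 9 had at least 10 counts in some library and 6 were tested. Of these Gpr52 passed as higher, and Gpr153 and Gpr45 were counted as higher but had reached the test only through the group where they were high. Gpr52, an orphan of the striatum, had 162 and 29 counts in set 1 and 78 and 17 in set 2 (adjusted p = 0.00417, edgeR). It lies within Rabgap1l, whose counts were 13684 and 7154 in set 1 and 9882 and 4825 in set 2, in the same direction. The part of Rabgap1l reads in the Gpr52 counts was not tested. Gpr153 had 68 and 8 counts and then 60 and 3. Gpr45 had 14 counts in the CD4+Lrig1+ library of set 1, 18 in that of set 2, and 0 in both CD4+Lrig1- libraries. Against a floor of 3 counts in each CD4+Lrig1- library it was at least 4.30-fold higher in set 1 and at least 5.64-fold higher in set 2. At such counts these genes give little precision.

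The receptors of metabolites and of myeloid cells had low levels throughout. Of 11, 5 had at least 10 counts in some library and 4 were tested. Gpr141, an orphan of myeloid cells, passed as lower, at 0.56 and 1.71 CPM in set 1 and 1.36 and 2.89 CPM in set 2 (adjusted p = 0.023, edgeR). The myeloid marker sums were also higher in the CD4+Lrig1- library of both sets, at 61.2 against 52.9 CPM and 249 against 211 CPM, but the list went both ways. Csf1r was at 13.2 and 6.39 CPM in set 1 and 65.9 and 32.2 CPM in set 2, higher in CD4+Lrig1+, and the median log2 ratio of the 8 markers was 0.11 in set 1 and 0.14 in set 2. Their part in this difference was not tested. Gpr35, which binds tryptophan metabolites, had 109 and 222 counts in set 1 and 201 and 211 in set 2 and did not pass (adjusted p = 0.139, edgeR). Gpr84, a receptor for medium-chain fatty acids in macrophages, had 11 counts in the CD4+Lrig1- library of set 2 and 0 in the others. The constitutively active receptors that raise cyclic AMP were represented by Gpr3, with 14, 2, 5 and 0 counts, and the brain receptors Gpr27, Gpr85 and Gpr173 reached 10 counts in no library. In all, 43 members were not tested, with at most 32 counts in any library, and 7 of these reached 10 counts in some library, Gpr3, Gpr4, Gpr39, Gpr62, Gpr84 and Gpr161 among them. Gpr39, a zinc receptor, had all of its 32 counts in the CD4+Lrig1+ library of set 2.

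The receptors act through G proteins, and the subunits, arrestins and receptor kinases were read from a list of 38 genes, of which 26 were tested. Without the table term edgeR called 0 of them higher and the DESeq2 Wald test 1, Gna14 (background 0% and 1.63%). Neither called any of them lower. With it, edgeR called 7 higher in CD4+Lrig1+ and 3 lower, beside a background of 14.6% and 12.8%. The median log2 fold change in the edgeR fit without that term was -0.00. The 4 alpha subunits called higher were Gnaq, Gna14 and Gna15, all of the class that activates phospholipase C, and Gna12, which acts on the cytoskeleton. Gna11, of the same class as Gnaq, ran the other way without passing, at 34.5 and 39.9 CPM in set 1 and 16.0 and 20.9 CPM in set 2 (log2 fold change -0.30 ± 0.09, adjusted p = 0.0552, edgeR). Gnaq was at 32.5 and 8.77 CPM in set 1 and 21.3 and 5.96 CPM in set 2 (log2 fold change 1.86 ± 0.10, adjusted p = 3.7e-05, edgeR). Gna14 had 121 and 258 counts in the CD4+Lrig1+ libraries of set 1 and set 2 and 0 in both CD4+Lrig1- libraries. Against the floor of 3 counts it was at least 37.1-fold and at least 80.9-fold higher. It passed the filter on low counts through its CD4+Lrig1+ libraries alone, so its call is a description. Gna15 was at 11.9 and 6.85 CPM and then 15.4 and 8.53 CPM, and Gna12 at 22.4 and 13.3 CPM and then 18.7 and 11.0 CPM.

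Gnai2, the most abundant inhibitory alpha subunit and the one through which chemoattractant receptors signal, was at 611 and 599 CPM in set 1 and 850 and 867 CPM in set 2, with a log2 fold change of -0.00 ± 0.10 (adjusted p = 0.995, edgeR). Its 2 libraries within a set differed far less than the sets. Of the beta and gamma subunits, Gng2 was at 60.2 and 35.9 CPM and then 90.5 and 55.4 CPM (adjusted p = 4.92e-04, edgeR), and Gnb5 and Gng10 also passed as higher. On the side that ends a signal, Grk6, a kinase of chemokine receptors in leukocytes, was at 400 and 555 CPM and then 305 and 478 CPM (log2 fold change -0.56 ± 0.09, adjusted p = 0.00417, edgeR). Arrb2, which uncouples phosphorylated receptors, was at 189 and 248 CPM and then 142 and 182 CPM (adjusted p = 0.00946, edgeR). Both were lower in CD4+Lrig1+ of both sets. Grk3 was also lower, but by unequal amounts, at 2.83 and 21.2 CPM in set 1 and 1.69 and 3.52 CPM in set 2 (adjusted p = 0.00791, edgeR).

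**Figure D4:**
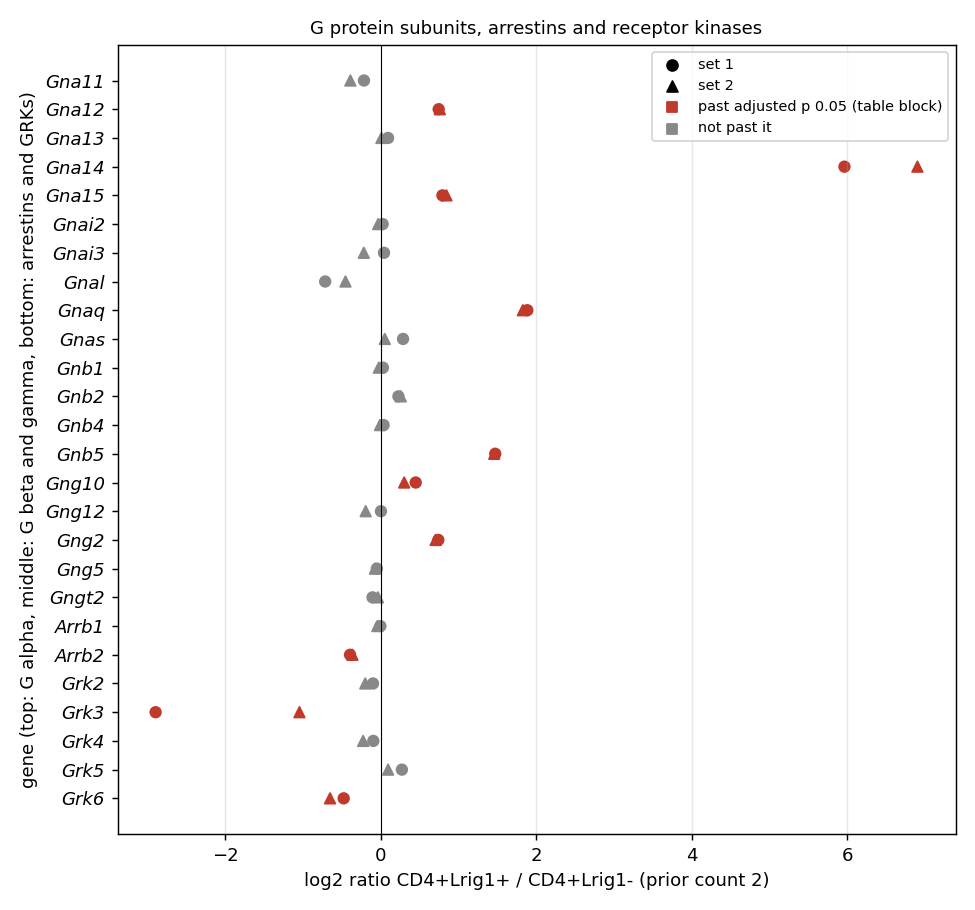
Log2 ratio between the CD4+Lrig1+ and the CD4+Lrig1- library (prior count of 2) in set 1 (circles) and set 2 (triangles) for the 26 tested G protein subunits, arrestins and receptor kinases, in red where the gene passed with the table term. Gna14, Gnaq and Gnb5 lie to the right of 0 in both sets, Grk3 to the left, and Gnai2 at 0.

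Of the 15 listed enzymes and ligands of these receptors, 13 were in the tables and 6 were tested. With the table term edgeR called 0 higher and 2 lower (background 14.6% and 12.8%). DESeq2's Wald test with that term called 0 higher and 1 lower (background 11.5% and 12.2%). Ch25h and Cyp7b1, which make the oxysterol ligand of Gpr183, were at or below 0.074 CPM in every library. Cyp27a1, another sterol hydroxylase, was at 1.21 and 5.32 CPM in set 1 and 0.80 and 1.30 CPM in set 2 (adjusted p = 0.0331, edgeR). With the table term it passed neither in DESeq2's Wald test (adjusted p = 0.0672) nor in limma (0.167). Abhd16a, which makes lysophosphatidylserine, the lipid of Gpr34 and Gpr174, was at 46.8 and 58.2 CPM and then 29.4 and 44.0 CPM (adjusted p = 0.0127, edgeR). Abhd12, which breaks the same lipid down, was at 39.3 and 33.4 CPM and then 60.4 and 51.3 CPM and did not pass (adjusted p = 0.0677, edgeR).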

How the data were processed

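The sorted splenic T cells were sequenced by the authors, who trimmed reads with Trimmomatic 0.38, mapped them with HISAT2 2.1.0 and assembled them with StringTie 2.1.3b. The submitters' processing notes also name Bowtie2 2.3.4.1. As deposited, the tables hold estimated counts per transcript, not normalized, for 129299 transcripts. The FPKM and TPM values were deposited by the authors beside them, scaled by transcript length and library. The genome build is not given in the sources used here; of the members, 78 matched RefSeq of GRCm38 by gene ID and 73 had the same span. Another table, with 6 per-sample columns for 2 libraries, was not used because its columns do not name the Lrig1 group.

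Counts were summed per gene, filtered by filterByExpr, normalised by TMM and tested over all genes with the quasi-likelihood test of edgeR 4.0.16 in R 4.3.3 (Benjamini-Hochberg adjusted p under 0.05). Alternatives were a term for the table, the Wald test of DESeq2 1.42.0, DESeq2's size factors, other filters, limma 3.58.1 on log2(FPKM + pseudocount) with a pseudocount of 1 or 0.1, and each library left out. A prior count of 2 entered each within-set ratio. Tables were handled in Python 3.11.15 with pandas 2.3.3.

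The members and lists were chosen with earlier results of these data known. Genes named were Gpr83, Gpr183 and Gpr18, members past the threshold in the fit without or with the table term, the 15 members of highest mean FPKM, listed partner and ligand genes that passed, and Lrig1 and Foxp3. Others named (Gpr3, Gpr4, Gpr25, Gpr35, Gpr39, Gpr84, Gpr137c, Gpr143, Gnai2, Gna11, Csf1r, Ch25h, Cyp7b1, Abhd12, members counted and overlapping genes) were chosen after their values were seen. Single values of a few members are not reported here, although they stay in the counts.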

Additional observations from a re-analysis of the deposited data

How the results depend on the processing

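Without a table term, edgeR called 0 members in either direction with TMM or DESeq2's size factors, with either low-count filter, with limma on log2(FPKM + 1) or log2(FPKM + 0.1), and when each library was left out (0 to 0 members, both directions). The DESeq2 Wald test called 3 members higher (background 1.63%). With the table term, members called higher and lower numbered 13 and 8 by edgeR (background 14.6% and 12.8%). They numbered 10 and 7 by the DESeq2 Wald test (background 11.5% and 12.2%). By limma on log2(FPKM + 1) they numbered 7 and 6 (background 11.9% and 6.3%). The share of all genes called thus also changed between fits. Alternatives chosen after seeing the data gave 12 and 8 with the table term and DESeq2's size factors (background 13.7% and 14.8%). With the table term and total counts only they gave 13 and 8 (background 19% and 12.6%). The limit given above for Gpr45 and Gpr153 holds for the higher counts that include them. At an adjusted p under 0.1 the table term gave 13 and 8 (background 18.3% and 17.5%). The cause of these shifts was not tested beyond the construction of the fits: the table term removes the difference between sets and leaves 1 residual degree of freedom.

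Of the partner genes, edgeR with the table term called 7 higher and 3 lower (background 14.6% and 12.8%). The DESeq2 Wald test without that term called 1 higher (background 1.63%). Of the enzymes and ligands, edgeR with the table term called 2 lower (background 12.8%). DESeq2's Wald test with that term called 1 lower (background 12.2%). The direction of 21 of the 23 named members held under each alternative that gave them a value; Gpr45 and Gpr153 had none with at least 10 counts in every library. Gpr18 and Gpr183 came near 0 with 1 library left out, at -0.03 and -0.02 (log2). Gpr137 went from 0.45 to -0.0236 (log2) without CD4+Lrig1+ of set 1 and to -0.0244 without CD4+Lrig1- of set 2, and Gpr89 from 0.11 to -0.22 and -0.13, with ranges over the 4 libraries left out of -0.0244 to 1.19 and -0.22 to 0.43. Without the same libraries the median over members was -0.13 and -0.02. With 5 or 20 in place of 10 counts, 47 or 34 members were detected in any library. No paired analysis was possible by replicate number because the columns carry no replicate numbers to pair by. Libraries were matched by table alone, through the table term, which in effect pairs the CD4+Lrig1+ and CD4+Lrig1- libraries of each set. The adjusted p-values from fits with that term depend on this matching. The labels do not say that the libraries of a table belong together.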
